A study of Mus musculus with 8 samples.

Results

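The proteasome, the protease that breaks down ubiquitin-tagged proteins, was followed gene by gene in single islet cells of mice with and without partial pancreatectomy (PPTx). Its genes were taken by name, as every gene column that begins with Psma, Psmb, Psmc or Psmd and a digit, and 40 of the 24421 genes of the count tables met this rule. Of these, 39 encode a subunit or an assembly factor of the proteasome, and 1, *Psmc3ip*, encodes a partner of meiotic recombinases and no subunit. It is given apart and is in no sum below. The spermatogenesis-specific α subunit *Psma8* and the thymus-specific catalytic subunit *Psmb11* had no UMI in any cell, and the other 38 members had at least 1.

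Control islets came from 4 samples of unoperated male C57BL/6J mice aged 8 weeks, and PPTx islets from 4 samples of such mice 2 days after removal of 50% of the pancreas. Each sample pooled the islets of 1 to 3 mice. The splenic side was the side cut away, and no sham operation was made, so the operation, the lost tissue and the part of the pancreas that was sampled cannot be told apart. P-values measure the spread between these samples.

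The barrel of the proteasome, the 20S core, has outer rings of α subunits (Psma) and inner rings of β subunits (Psmb), of which *Psmb6*, *Psmb7* and *Psmb5* carry the caspase-like, trypsin-like and chymotrypsin-like sites. Interferon replaces these with *Psmb9*, *Psmb10* and *Psmb8*, the catalytic subunits of the immunoproteasome. The 19S particle caps the barrel: its 6 ATPases (Psmc) unfold the substrate, *Psmd4* binds the ubiquitin chain, and *Psmd14* in the lid removes the chain. In β-cells, which make insulin through the endoplasmic reticulum (ER), misfolded secretory proteins are drawn back into the cytosol and end in the proteasome.

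UMIs, unique molecular identifiers that mark single captured transcripts, were counted in 1232 kept cells of 1240. A cell was named by the hormone with most of its hormone UMIs, if it had at least 3 times the UMIs of the next hormone, which gave 949 β-cells, 110 α-cells, 125 PP-cells, 9 δ-cells and 39 mixed cells. Levels are given in UPM, UMIs per 1000000 UMIs outside the 8 hormone genes, whose RNA took 57.5% to 67.2% of the UMIs of β-cells. UMIs count transcript ends and are not scaled by length. All 7 further β-cell markers were detected in the β-cells, where they summed to 9122 UPM against 1284 in α-cells and 561 in PP-cells. The 7 further α-cell markers summed to 78457 in α-cells, 4983 in β-cells and 7322 in PP-cells. PP-cells rest on their hormones, since of the further PP-cell markers *Ttr* also marks α-cells and *Fxyd2* was nearly absent. Erythroid markers were at 0 in every class. Between 54 and 235 β-cells with a median of 3468 to 10378 UMIs per cell stood behind each sample, and 1 barcode was shared between samples. A β-cell held a median of 12 UMIs of the 39 genes, spread over 9 of them, so single genes were compared only as sums over a sample's cells.

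Sequence upstream of the start site was available in the RefSeq promoter table (GRCm38.p6, the build named mm10 in the labels) for 33 of the 40 members, as 35 windows. The 250 bases before the start are printed for *Psmb5*, *Psmb6* and *Psmd14*, the members with the lowest p-values after PPTx, for *Psmc6*, which like *Psmd12* holds all 3 motifs marked here, and for *Psmc3ip*. Capitals mark CCGGAA, the core that ETS factors bind, TGACNNNGC, a loose form of the antioxidant response element that *Nfe2l1* binds, and GGGCGG, the GC box, each on either strand. These sequences lie at chr14:54617996-54618245 on the minus strand, chr11:70525107-70525356 on the plus strand, chr2:61711444-61711693 on the plus strand, chr14:45329574-45329823 on the plus strand and chr11:101095436-101095685 on the minus strand.
Psmb5: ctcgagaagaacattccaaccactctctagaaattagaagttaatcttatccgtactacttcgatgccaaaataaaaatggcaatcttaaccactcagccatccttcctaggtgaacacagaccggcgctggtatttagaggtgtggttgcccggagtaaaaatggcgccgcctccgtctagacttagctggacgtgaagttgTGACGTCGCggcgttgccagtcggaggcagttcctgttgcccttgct
Psmb6: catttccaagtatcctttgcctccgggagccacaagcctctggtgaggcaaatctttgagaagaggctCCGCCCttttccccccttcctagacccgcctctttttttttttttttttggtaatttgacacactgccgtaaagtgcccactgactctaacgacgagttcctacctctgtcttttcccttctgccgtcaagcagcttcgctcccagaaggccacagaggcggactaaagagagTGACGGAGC
Psmd14: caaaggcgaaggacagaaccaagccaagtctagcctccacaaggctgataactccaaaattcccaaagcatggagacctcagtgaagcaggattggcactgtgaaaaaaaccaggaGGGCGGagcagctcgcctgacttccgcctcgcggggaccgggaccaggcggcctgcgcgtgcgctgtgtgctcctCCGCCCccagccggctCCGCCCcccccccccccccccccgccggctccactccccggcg
Psmc6: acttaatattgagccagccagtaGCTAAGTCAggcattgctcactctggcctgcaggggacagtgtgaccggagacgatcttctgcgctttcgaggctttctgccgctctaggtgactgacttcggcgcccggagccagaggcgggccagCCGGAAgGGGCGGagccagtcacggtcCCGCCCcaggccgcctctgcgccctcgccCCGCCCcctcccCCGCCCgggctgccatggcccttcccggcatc
Psmc3ip: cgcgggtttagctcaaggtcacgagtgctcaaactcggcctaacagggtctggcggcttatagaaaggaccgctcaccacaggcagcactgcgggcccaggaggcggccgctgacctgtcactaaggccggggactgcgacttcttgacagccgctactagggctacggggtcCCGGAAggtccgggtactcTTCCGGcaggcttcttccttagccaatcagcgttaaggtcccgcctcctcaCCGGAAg

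CCGGAA was in 42.9% of the members' windows and in 12.03% of all 32851 windows of the table. It was found in 10 of 14 matched 19S subunits (*Psmc1*, *Psmc2*, *Psmc5*, *Psmc6*, *Psmd2*, *Psmd4*, *Psmd6*, *Psmd11*, *Psmd12* and *Psmd13*) and in 2 of 11 matched constitutive 20S subunits (*Psma5* and *Psma6*). The windows of *Psmb8*, *Psmb9*, *Psmb10* and *Psmb11* did not hold it, and the *Psmc3ip* window held it 3 times. TGACNNNGC was in 14.3% of the members' windows and 10.2% of all windows, in *Psmb5*, *Psmb6*, *Psmc6*, *Psmd9* and *Psmd12*. GGGCGG was in 51.4% of the members' windows and 32.7% of all windows. In *Psmb5* the bases of TGACNNNGC also spell TGACGT, the core of a cAMP response element. The motifs were chosen after the expression values had been seen, 9 were searched, and a match of letters is not a bound site.

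In β-cells of control mice the 39 genes together had a level of 4322 in sample 1, 4166 in sample 2, 5317 in sample 3 and 5169 in sample 4. After PPTx the level was 5806, 5831, 5564 and 5622. Every PPTx sample lay above every control sample. The control mean was 4744 ± 584 (SD, n = 4) and the PPTx mean 5706 ± 133 (SD, n = 4), a ratio of 1.20. Within the control group, samples 1 and 2 lay below samples 3 and 4, and the SD over the control samples was larger than that over the PPTx samples. No p-value is given for this sum, since the genes were chosen with earlier results known.

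**Figure D1:**
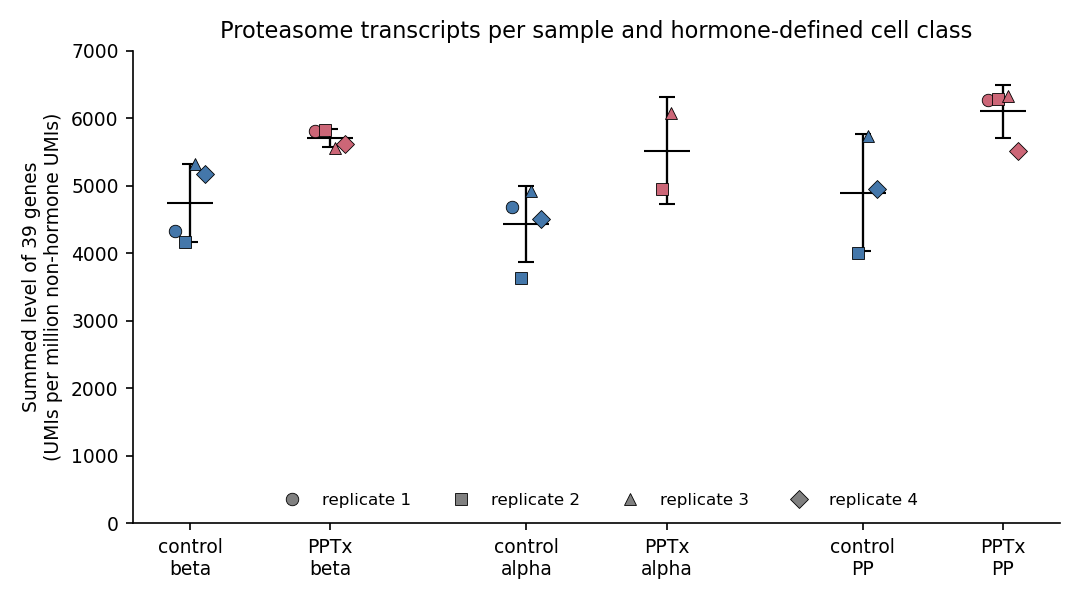
Summed level of the 39 proteasome genes (UPM, y axis) in β-, α- and PP-cells of control (blue) and PPTx (red) samples with at least 5 cells of the class. Each point is 1 sample, marked by replicate number, and bars are the mean with SD. In β-cells the PPTx samples (5564 to 5831) lie above the control samples (4166 to 5317).

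The difference lay mainly in the 20S core. The core summed to 2210, 2258, 2814 and 2859 in control and to 3310, 3382, 3021 and 3152 in PPTx β-cells, with no overlap and a ratio of 1.27. The 19S particle summed to 1944, 1827, 2415 and 2195 in control and to 2383, 2355, 2458 and 2380 in PPTx β-cells. Here the highest control sample lay above 3 of the PPTx samples, and the ratio was 1.14. The core took 53.2% to 56.6% of the UMIs of core and particle in control samples and 55.1% to 59.0% in PPTx samples, so these shares overlapped.

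Within the core, the α ring, the non-catalytic β subunits and the constitutive catalytic subunits were each higher in all PPTx samples than in all control samples. The α ring had a control range of 907 to 1109 and a PPTx range of 1193 to 1420. The non-catalytic β subunits had 909 to 1291 and 1342 to 1393. The 3 constitutive catalytic subunits had levels of 322, 238, 377 and 401 in control and of 504, 468, 408 and 548 in PPTx β-cells. That group had the highest ratio of the sums, 1.44, and its gap between the groups was narrow, with control sample 4 at 401 and PPTx sample 3 at 408. The ATPases (ratio 1.146), the rest of the base (1.14) and the lid (1.14) overlapped between groups. So did the inducible catalytic subunits at 42.0 to 100.1 in control and 61.0 to 110.1 in PPTx β-cells. The sum of the 19S assembly factors *Psmd5*, *Psmd9* and *Psmd10* had a lower mean after PPTx, at a ratio of 0.85, with overlap. That direction leans on control sample 1, at 167.8 from 12 UMIs, where samples 2 to 4 had 81.3, 88.8 and 115.0 and the PPTx mean was 96.0. *Psmd9* and *Psmd10* had lower means after PPTx (45.7 to 33.4 and 32.9 to 15.1). *Psmd5*, the only one of these with enough counts for the fit, had a positive log2 fold change of 0.59 (SE 0.34, edgeR adjusted p = 0.619).

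**Figure D2:**
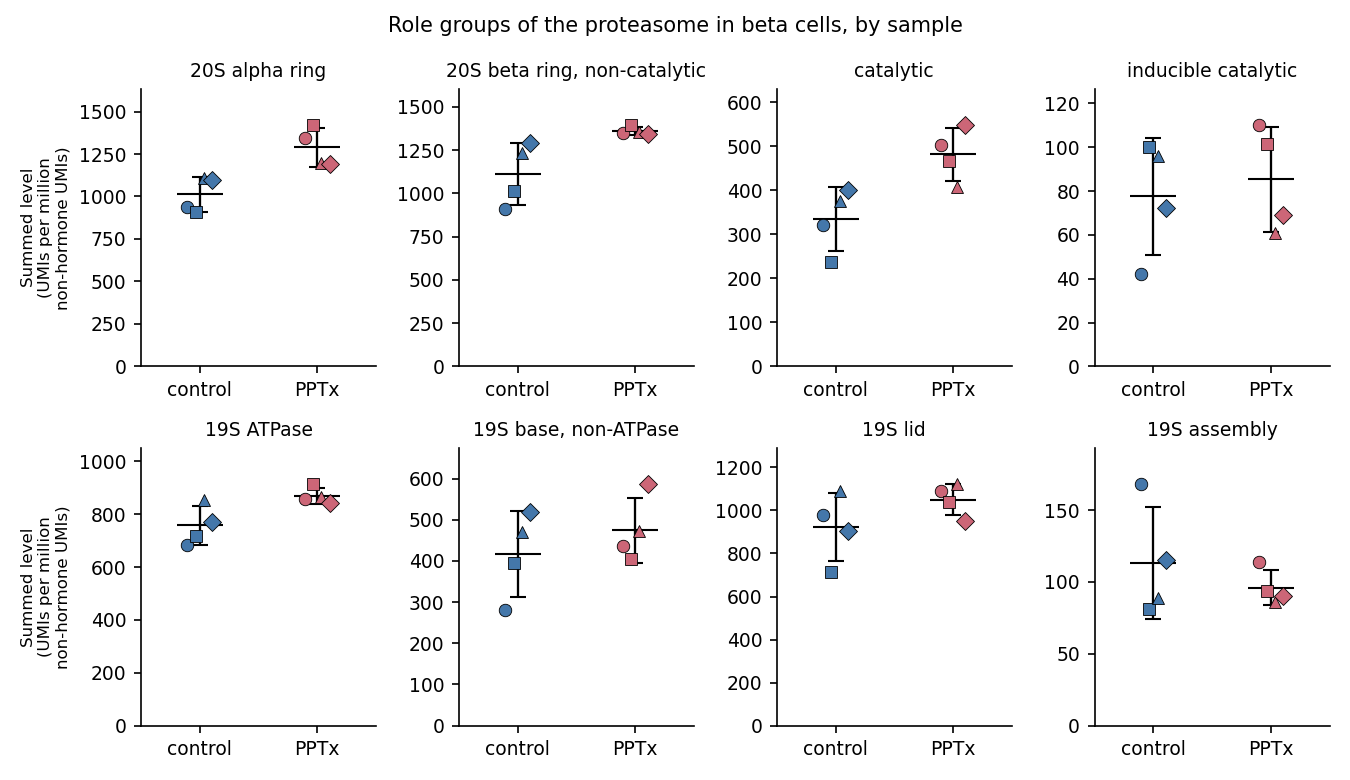
Summed level of each role group in β-cells (UPM, y axes from 0) by sample, control in blue and PPTx in red, with mean and SD. The α ring, the other β subunits and the catalytic subunits do not overlap between groups, while the 5 other groups do.

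Gene by gene, no single member passed the test. edgeR's quasi-likelihood test on the sums of each sample's β-cells tested 33 members among 5892 genes and called 0 members at an adjusted p of 0.05, where 0.272% of all tested genes (16 genes) were called. DESeq2 gave an adjusted p to 11 of these members among 1323 genes and called 0 members, where 1.81% of those genes were called. At an unadjusted p under 0.05 there were 4 members, all with positive fits, against 5.11% of all genes that were higher at this p. The fitted log2 fold change was above 0 for 30 of the 33 members, as for 48.7% of all tested genes, and its median was 0.26 over the members and -0.01 over all genes.

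*Psmb5*, the chymotrypsin-like subunit, had levels of 28.0, 31.3, 31.2 and 39.4 in control and 78.1, 107.0, 44.4 and 21.3 in PPTx β-cells. These rest on 2, 5, 13 and 12 UMIs in control and 22, 57, 16 and 4 in PPTx samples. In all, 3 of the PPTx samples lay above all controls and PPTx sample 4 lay below them, and the log2 fold change was 1.05 (SE 0.38, edgeR adjusted p = 0.368). *Psmd14*, the deubiquitinase of the lid, had 111.9, 50.0, 88.8 and 62.4 in control and 95.9, 137.1, 113.7 and 106.5 in PPTx β-cells. Control sample 1 was among the PPTx values, and the log2 fold change was 0.64 (SE 0.25, edgeR adjusted p = 0.397). *Psmb6*, the caspase-like subunit, had 223.8, 187.7, 247.3 and 305.6 in control and 362.2, 336.1, 244.1 and 463.2 in PPTx β-cells. Only PPTx sample 3 fell within the control range, and the log2 fold change was 0.51 (SE 0.21, edgeR adjusted p = 0.443). The fourth at this unadjusted p was the α subunit *Psma4*, with a log2 fold change of 0.80 (SE 0.36, edgeR adjusted p = 0.492).

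The other fixed genes had smaller fitted changes. *Psmb7*, the trypsin-like subunit, had a log2 fold change of 0.01 (SE 0.42), with levels of 18.8 to 98.4 in control and 24.4 to 119.3 in PPTx β-cells, and its fitted value turned below 0 in 4 of the alternatives. The ubiquitin receptor *Psmd4* was 1 of the 3 members with a negative fit, at -0.13 (SE 0.22), next to the ATPase *Psmc1* at -0.29 and the lid subunit *Psmd12* at -0.01. All 7 tested α subunits and all 7 tested constitutive β subunits had fitted values above 0, with medians of 0.38 for the α ring, 0.24 for *Psmb1* to *Psmb4* and 0.51 for the catalytic subunits. Medians were 0.21 for the ATPases and 0.16 for the lid. *Psmc1* and *Psmd12* were named after their values were seen.

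**Figure D3:**
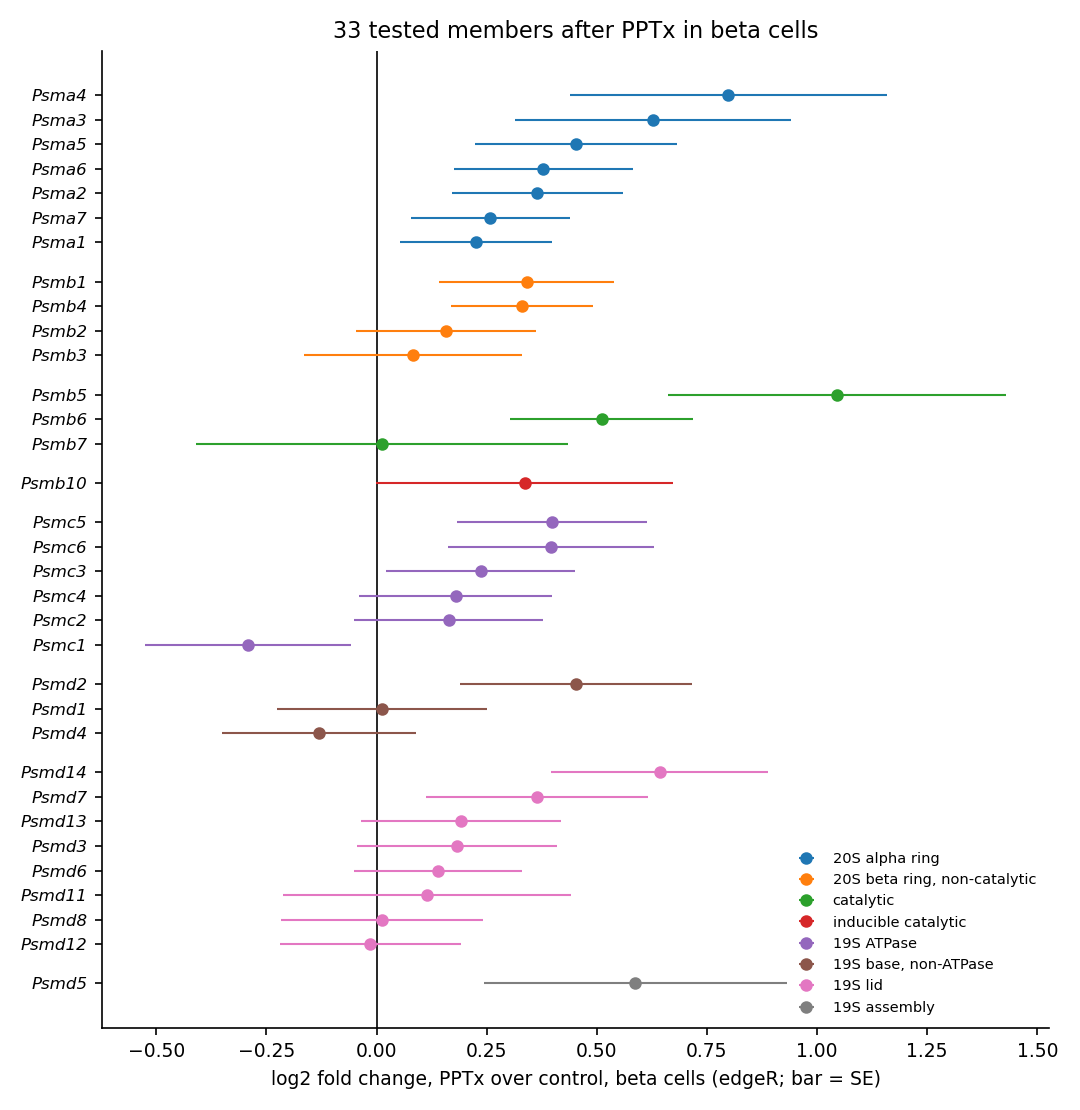
Fitted log2 fold change (PPTx over control, x axis) with its SE for each of the 33 tested members in β-cells, grouped by role. None passed the adjusted threshold, and 30 of 33 lie to the right of 0.

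The α subunit *Psma1* was the only tested member whose groups did not overlap, at 195.8, 218.9, 228.1 and 213.6 in control and 262.8, 249.8, 244.1 and 239.6 in PPTx β-cells. Of all genes, 2.65% were higher in every PPTx sample and 3.14% lower. Its log2 fold change was small, 0.23 (SE 0.17, edgeR adjusted p = 0.731). *Psma1* falls outside the rule for naming genes and was named after its values were seen.

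Ribosomal protein genes and ER chaperones were also higher in every PPTx sample than in every control sample. Ribosomal protein genes took 4.75% to 4.91% of the non-hormone UMIs of control and 5.003% to 5.18% of PPTx β-cells. The 11 listed ER chaperones took 0.70% to 1.21% and 1.31% to 1.503%. Neither overlapped between groups, and 3 chaperone genes were called higher after PPTx: *Sdf2l1* (log2 fold change 1.06, SE 0.19), *Creld2* (1.04, SE 0.19) and *Pdia6* (0.69, SE 0.14), at edgeR adjusted p-values of 0.0116, 0.0194 and 0.0340. Their part in the higher proteasome level was not tested. Among other cells' markers, the immune list lay between 42.0 and 247.3 in control and between 47.2 and 937.5 in PPTx β-cells, and the stellate list between 0 and 62.4 and between 2.77 and 665.5. In the 792 β-cells without a UMI of the immune, endothelial, acinar, ductal or stellate lists (*Spp1* and *C1qa* aside), the summed ratio was 1.20 and the groups did not overlap. Without the 38 replicating cells described below it was 1.20 as well, again with no overlap.

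Partners of the proteasome were counted from a list of 46 genes. In β-cells 33 of them were tested and 0 were called by edgeR, where 0.272% of all genes were called, and 2 genes were under an unadjusted p of 0.05, in all genes 555 of 5892. Both had positive fits, among them *B2m*, the light chain of class I antigen complexes, at a log2 fold change of 0.87 (SE 0.28, edgeR adjusted p = 0.253). Of the *B2m* UMIs, 222 lay in the 157 β-cells with a UMI of other cell types' markers (*Spp1* and *C1qa* aside), at a pooled level of 593.2. The 792 β-cells without one held 240, at 123.7. The part of the former cells in the *B2m* fit was not tested. Fitted values were above 0 for 16 of the 33, as for 48.7% of all genes. *Nfe2l1*, the factor that turns on subunit genes when the proteasome is short, had -0.31 (SE 0.19), and the assembly factor *Pomp* had -0.01 (SE 0.21). The proteasome activators *Psme1* and *Psme2* had 0.44 (SE 0.27) and 0.33 (SE 0.26).

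Among the members that the filter on low counts left out of this fit, the inducible subunits *Psmb8* (69 UMIs in all β-cells) and *Psmb9* (39 UMIs) had levels of 22.2 ± 16.8 and 21.2 ± 10.97 over the 4 control samples (SD) and of 26.1 ± 19.6 and 12.6 ± 8.00 over the 4 PPTx samples (SD). Both overlapped between groups, with two-sided exact permutation p-values of 0.886 and 0.314. *Psmb10*, the remaining inducible subunit, was tested in the fit, with a log2 fold change of 0.34 (SE 0.34, edgeR adjusted p = 0.820). Of UMIs of constitutive and inducible catalytic subunits together, the inducible ones were 19.2% in control (81 of 421, exact 95% interval 15.6% to 23.3%) and 15.8% in PPTx β-cells (120 of 761, 13.3% to 18.6%). Per sample the share was 11.5% to 29.6% and 11.2% to 17.9%. The intervals cover counting error only.

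*Psmc3ip*, which acts with the recombinases and is no part of the proteasome, had 4 UMIs in control and 20 in PPTx β-cells. The control levels were 0, 0, 9.60 and 0, and the PPTx levels 10.7, 13.1, 19.4 and 16.0, without overlap. The two-sided exact permutation p was 0.0286, the smallest that 4 samples against 4 can give, and was 1 of 5 such tests of members outside the fit. In β-cells its UMIs lay mostly in replicating cells: 18 of the 24 were in 38 β-cells with at least 2 UMIs of 10 replication markers, of which 11 (28.9%) held a *Psmc3ip* UMI. Only samples with at least 3 such cells were used for this, and 2 further β-cells with that many marker UMIs, outside these samples, were left among the others. Of these other 911 β-cells 6 (0.659%) held one, and all 6 were in PPTx samples. There were 4 replicating cells each in control samples 3 and 4 and 5, 14, 8 and 3 in the PPTx samples. Over these 6 samples the level was higher in replicating cells in 4, and a two-sided exact sign-flip test gave p = 0.125, where 0.0625 is the smallest possible with the 1 sample at 0 in both. Outside β-cells, *Psmc3ip* had 8 UMIs in α-cells, at a mean of 82.2 against 7.03 in β-cells of the same samples and higher in 4 of 6, with a difference of 75.2 ± 151.2 (SD, n = 6), within the spread over samples. Control sample 1 held 3 of these UMIs, at a level of 379.6, and without it the mean difference was 14.3. In PP-cells it had 0.

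Proteasome subunits were otherwise compared between the 38 replicating β-cells and 779 other β-cells of the same 6 samples, to see whether their transcripts go with replication. The summed level was 5871 ± 594 in replicating and 5529 ± 271 in other cells (SD, n = 6), and higher in replicating cells in 4 of 6 samples. edgeR with the sample as a block tested 26 members and called 0, where 5.81% of 2615 genes were called, and DESeq2 called 0, where it called 3.73% of 2412 genes. Under an unadjusted p of 0.05 there were 2 members, both higher in replicating cells, against 7.8% of all genes. Both were ATPases. *Psmc4* had a log2 fold change of 0.83 (SE 0.35, edgeR adjusted p = 0.169) and was higher in 5 of 6 samples, and *Psmc1* had 0.83 (SE 0.42, adjusted p = 0.280) and was higher in 4. The next lowest p was that of the lid subunit *Psmd6*, at -0.53 (SE 0.40, edgeR adjusted p = 0.570). Of the 6 ATPases, 5 had positive fitted values with a median of 0.43, and *Psmc2* at -0.56 was lower in all 6 samples. The median was 0.12 over the tested members and -0.10 over all genes. It lay between 0.03, without PPTx sample 1, and 0.21, without control sample 4, and turned to -0.22 with cells thinned to 2000 UMIs (5 members tested, against -0.32 over all genes) and to -0.48 without the filter on low counts (38 members, against -0.70). A sample had 3 to 14 replicating cells, and their median was 6798 UMIs against 6373 in the other cells. Of 21 tested partner genes, 0 were called.

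Subunits were next compared between β-cells with a high and a low load of folding helpers. Within each sample, β-cells were ranked by the share of ER chaperones in their non-hormone UMIs, and the 1 in 3 cells with the highest share (chaperone-high) and the 1 in 3 with the lowest (chaperone-low) were summed, with 315 cells in each. The 39 genes were higher in chaperone-high cells in 7 of 8 samples, at 5462 ± 665 against 4952 ± 530 (SD, n = 8). Other cell types' markers also differed between these sets of cells, as given below, and in β-cells without a UMI of them (*Spp1* and *C1qa* aside) the levels were 5426 ± 633 and 4965 ± 591 (SD, n = 8), again higher in 7 of 8 samples. Control sample 1 was the exception in all β-cells, at 4486 in chaperone-high and 4617 in chaperone-low cells. The α ring was higher in 7 of 8 samples (1280 ± 194 against 1020 ± 168), while the lid was higher in 4 of 8 (978 ± 161 against 946 ± 171). In chaperone-high cells the summed level was 4486 to 5528 in control and 5669 to 6179 in PPTx samples, with no overlap, and in chaperone-low cells 3964 to 5169 and 5098 to 5594, where the groups overlapped.

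edgeR with the sample as a block tested 22 members between these sets of cells and called 2, both higher in chaperone-high cells. Of 2104 genes 11.4% were called, and 6.7% were called higher. The lid subunit *Psmd6* had 216.1 ± 41.1 in chaperone-high and 150.8 ± 48.5 in chaperone-low cells (SD, n = 8), with a log2 fold change of 0.58 (SE 0.18, edgeR adjusted p = 0.0283). The α subunit *Psma7* had 365.8 ± 74.5 and 268.3 ± 42.0 (SD, n = 8), with 0.43 (SE 0.14, edgeR adjusted p = 0.0414). Each was higher in 7 of 8 samples. DESeq2 gave an adjusted p to 9 members among 1125 genes and called 0, where 9.6% of those genes were called. Both edgeR calls were lost when any 1 of control samples 3 and 4 and PPTx samples 1, 2 and 4 was left out, and that of *Psma7* also without control sample 1, when each sample was split at its median share and with library sizes taken without hormone genes. The α subunit *Psma5* did not pass, at 0.72 (SE 0.25, edgeR adjusted p = 0.0541). The median was 0.09 over the tested members and -0.02 over all genes. Chaperone-high cells were deeper, with a median of 7248 against 5183 UMIs. With all cells thinned to 2000 UMIs, 2 members could be tested and 0 were called, and their median turned to -0.11, against -0.0042 over all genes, with 1 of the 2 above 0.

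**Figure D4:**
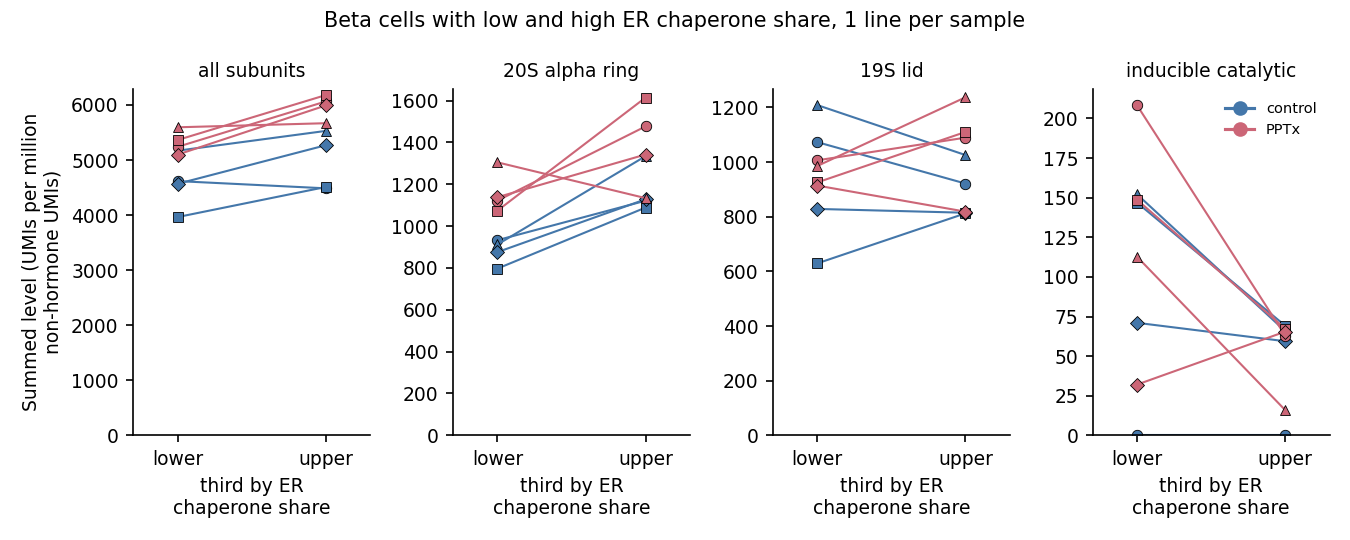
Summed level (UPM, y axes from 0) in the 1 in 3 of each sample's β-cells with the lowest and the highest ER chaperone share, 1 line per sample, control in blue and PPTx in red. The sum of all subunits is higher in chaperone-high cells in 7 of 8 samples, and the inducible catalytic subunits are lower in 6 of 8.

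The sum of the inducible catalytic subunits went the other way, by a mean difference of -58.2 ± 59.4 (SD, n = 8), just below its SD. That SD is the spread of single samples' differences and not the error of their mean, and the sum was not tested. The inducible subunits had 47 UMIs in chaperone-high and 86 in chaperone-low cells, at levels of 50.7 ± 26.9 and 108.9 ± 69.6 (SD, n = 8). They were lower in chaperone-high cells in 6 samples, higher in 1 and equal in 1. *Psmb8* had 12 and 37 UMIs and *Psmb10* 18 and 37, whereas *Psmb9* had 17 and 12. None of the 3 had enough counts for the fit. *B2m* was called lower in chaperone-high cells (log2 fold change -2.06, SE 0.28, edgeR adjusted p = 8.17e-07) and was the only one called of 19 tested partner genes, where 11.4% of all tested genes were called and 4.71% were called lower. Immune markers moved with this difference: the 8-gene list had 46 UMIs in chaperone-high and 461 in chaperone-low cells, and the 5 stellate markers had 1 and 304. In β-cells without a UMI of other cell types' markers, *Spp1* and *C1qa* aside, the inducible subunits had 44 and 61 UMIs at pooled levels of 61.3 and 108.8, and *B2m* had pooled levels of 103.1 and 158.7. What was left of the immune list there was *C1qa* alone, at 46.0 and 49.9, since cells with a UMI of the rest of the list had been taken out. In those cells the inducible level in chaperone-low cells was 1.77 times that in chaperone-high cells, against 2.26 times in all β-cells. The part of other cell types' RNA in this difference was not tested further, and this choice of cells was made after seeing the data.

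Across cell types the question was whether the hormone classes differ in their proteasome. The summed level was 4795 ± 793 in α-cells and 5062 in β-cells of the same 6 samples, and 5586 ± 861 in PP-cells and 5354 in β-cells of the same 7 samples. The SD of a difference below is the spread of single samples' differences and not the error of their mean. Neither mean difference of the sum exceeded its SD: α minus β was -267 ± 569 (SD, n = 6) and PP minus β 232 ± 386 (SD, n = 7). Without 1 sample at a time the first lay between -423 and -145 and the second between 145 and 308. The α ring differed by more than its spread in PP-cells, at 1578 against 1181 in β-cells, higher in 6 of 7 samples with a difference of 398 ± 306 (SD, n = 7), and by less in α-cells, at 151 ± 161 (SD, n = 6), higher in 5 of 6. The non-catalytic β subunits were at 1148 in α-cells against 1199 in β-cells, higher in 1 of 6 samples, and at 1209.8 in PP-cells against 1282, higher in 2 of 7. Their mean difference in α-cells, -51.3, was -183.4 without control sample 1 and turned to 6.59 without control sample 4. The lid was at 739 in α-cells against 974 in β-cells, higher in 1 of 6 samples, and at 1028 in PP-cells against 987, higher in 5 of 7. Its mean difference in PP-cells, 41.4, was 98.4 without control sample 3 and turned to -3.27 without PPTx sample 3. The ATPases were at 682 in α-cells against 802, higher in 1 of 6, and at 776 in PP-cells against 832, higher in 4 of 7. The 19S particle was lower in α-cells than in β-cells in 6 of 6 samples, at 1855 against 2199, a difference of -344 ± 241 (SD, n = 6). In PP-cells it was lower in 5 of 7 samples, at 2209 against 2287.

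edgeR with the sample as a block tested 13 members and called 1 in α-cells, where 46.9% of 1376 genes were called (22.9% higher), and 3 in PP-cells, 2 higher and 1 lower, where 46% were called (23.3% higher and 22.7% lower). *Psma2* of the α ring was higher than in β-cells in both. It had 409.2 in α-cells and 236.2 in β-cells of the same samples (higher in 5 of 6) with a log2 fold change of 0.62 (SE 0.24, edgeR adjusted p = 0.0284), and 352.2 in PP-cells and 227.1 in β-cells (higher in 7 of 7) with 0.58 (SE 0.20, adjusted p = 0.0145). In PP-cells *Psma1* was also higher, with 0.49 (SE 0.20, edgeR adjusted p = 0.0404), though in 4 of 7 samples only. The ATPase *Psmc4* was lower in PP-cells in 7 of 7 samples, at 92.1 against 158.3, with -0.81 (SE 0.32, edgeR adjusted p = 0.0320). Its value in α-cells was 0.09 (SE 0.32). The lid subunit *Psmd6* was lower in α-cells in 6 of 6 samples, at 80.4 against 199.7, and did not pass, with -0.81 (SE 0.37, edgeR adjusted p = 0.0619).

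**Figure D5:**
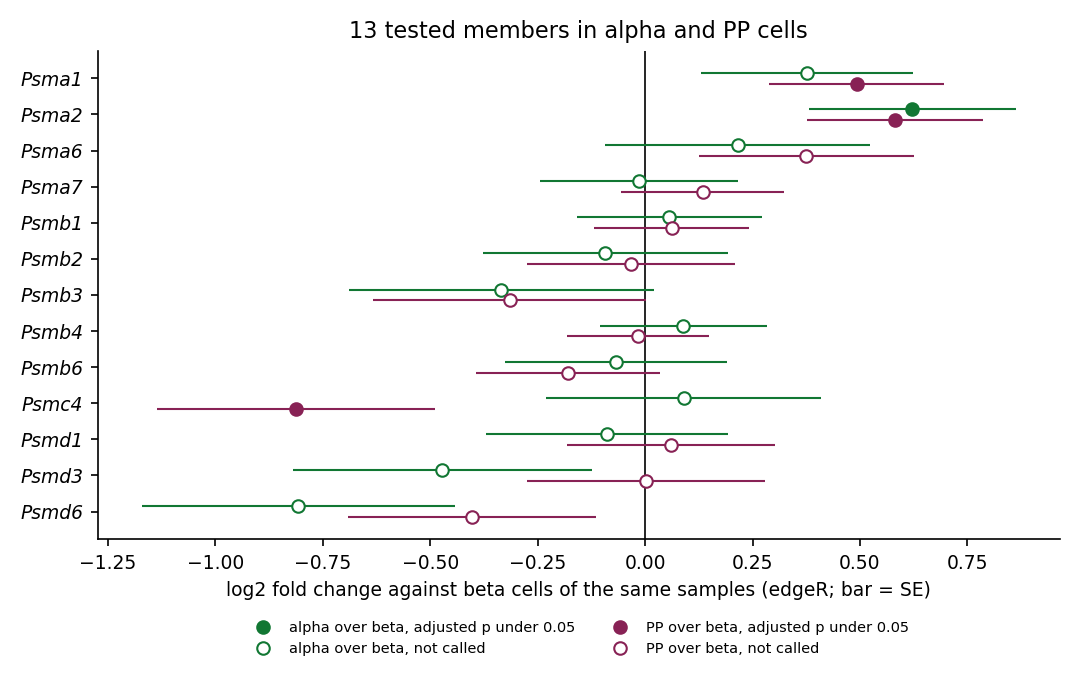
Fitted log2 fold change with SE of the 13 tested members in α-cells (green) and PP-cells (purple) against β-cells of the same samples, with filled points for an adjusted p under 0.05. *Psma2* is filled in both classes, and *Psma1* and *Psmc4* in PP-cells.

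These calls rest on few cells. DESeq2 called 0 members in α-cells and 1 in PP-cells, where it called 42.4% and 42.3% of all genes. Leaving out control sample 2, PPTx sample 2 or PPTx sample 3 left 0 calls in α-cells, while leaving out PPTx sample 2 left 0 in PP-cells. Medians were -0.01 over the members and -0.01 over all genes in α-cells, and 0.00 and 0.01 in PP-cells, and the sign of the members' median turned in 5 and 6 of 14 alternatives.

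Of the constitutive catalytic sites only *Psmb6* had enough counts for the fit, with -0.07 (SE 0.26, edgeR adjusted p = 0.849) in α-cells and -0.18 (SE 0.21, edgeR adjusted p = 0.512) in PP-cells, lower than in β-cells in 4 of 6 and 6 of 7 samples. The others are given without a test. *Psmb5* had 3 UMIs in all 110 α-cells and 11 in the 125 PP-cells. Its level was 4.599 in α-cells against 46.9 in β-cells of the same samples, lower in 6 of 6, and 29.7 in PP-cells against 50.4, lower in 6 of 7. *Psmb7* was at 91.6 in α-cells against 64.4 in β-cells, higher in 4 of 6, and at 43.2 in PP-cells against 63.5, higher in 1 of 7. The inducible subunits were 29.7% of catalytic and inducible UMIs in α-cells (33 of 111, exact 95% interval 21.4% to 39.1%), 28.8% in PP-cells (38 of 132, 21.2% to 37.3%) and 17.0% in β-cells (201 of 1182, 14.9% to 19.3%). Control samples gave most of the α-cell UMIs and PPTx samples most of those of β- and PP-cells. Within control samples the intervals of all classes overlapped, at 30.6% in α-cells (21.0% to 41.5%), 34.8% in PP-cells (16.4% to 57.3%) and 19.2% in β-cells (15.6% to 23.3%). Within PPTx samples they were 26.9% (11.6% to 47.8%), 27.5% (19.4% to 36.9%) and 15.8% (13.3% to 18.6%), and that of PP-cells lay apart from that of β-cells. By pair, *Psmb10* of *Psmb10* and *Psmb7* was 65.5% in PP-cells (19 of 29, 45.7% to 82.1%), 47.4% in α-cells (18 of 38, 31.0% to 64.2%) and 38.0% in β-cells (93 of 245, 31.9% to 44.4%). *Psmb9* of *Psmb9* and *Psmb6* was 6.41% in PP-cells (2.11% to 14.3%), 12.7% in α-cells (5.65% to 23.5%) and 5.29% in β-cells (3.79% to 7.16%). *Psmb8* of *Psmb8* and *Psmb5* was 56.0% in PP-cells (34.9% to 75.6%), 70.0% in α-cells (34.8% to 93.3%) and 34.5% in β-cells (27.9% to 41.5%). Of these pairs only *Psmb10* in PP-cells had an interval apart from that of β-cells, pooled over samples and covering counting error only. Control PP-cells had 3 of 7 (42.9%, 9.90% to 81.6%) and control β-cells 34 of 100 (34.0%, 24.8% to 44.2%), and PPTx PP-cells had 16 of 22 (72.7%, 49.8% to 89.3%) and PPTx β-cells 59 of 145 (40.7%, 32.6% to 49.2%). The inducible level was above that of β-cells in 3 of 6 samples in α-cells and in 5 of 7 in PP-cells, with differences of 30.9 ± 68.7 over the 6 samples and of 73.1 ± 150.2 over the 7 (SD), within the spread over samples. The difference in PP-cells rests largely on PPTx sample 4, where the level was 439.2 from 7 UMIs, and without that sample the mean difference was 23.7. In α-cells it lay between 15.6, without control sample 2, and 45.5, without control sample 1. Immune markers were at 65.9 in α-cells and 81.8 in PP-cells, against 241.5 in β-cells, each pooled over all samples. In α-cells 7 of the 8 genes, all but *C1qa*, had no UMI. By sample, β-cells ranged from 42.0 to 937.5, and 4 of the 8 samples lay below the pooled value of PP-cells.

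Of the 46 partner genes, 15 were tested between classes. In α-cells 6 were called of 15, against 46.9% of all genes. The ubiquitin precursor *Rps27a* was higher (0.90, SE 0.16), as were the shuttle receptor *Ubqln2* (1.07, SE 0.21) and the class I gene *H2-D1* (0.80, SE 0.22). *Nfe2l1* (-1.02, SE 0.31) and the unfolding ATPase *Vcp* (-0.58, SE 0.20) were lower, each in 6 of 6 samples. Adjusted p-values ran from 1.94e-06 to 0.0136 (edgeR). In PP-cells 5 of 15 were called, against 46% of all genes, and all were higher, against 23.3% of all genes. They included *Rps27a* (0.66), *Ubqln2* (0.87), *H2-D1* (0.58) and the activator subunit *Psme2* (0.82, SE 0.27), with adjusted p-values from 1.01e-04 to 0.0107.

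Outside β-cells PPTx was tested in PP-cells only, with 3 control and 4 PPTx samples of 6 to 44 cells. A group needed 3 samples with at least 5 cells, and of the PPTx samples 2 held that many α-cells, so no test was run in α-cells. Control sample 1 held 2 PP-cells. In PP-cells the 39 genes had levels of 4005, 5742 and 4947 in control samples 2 to 4 and 6276, 6289, 6323 and 5521 in PPTx samples, and 6834 in the left-out control sample 1, from 15 UMIs. PPTx sample 4 lay below control sample 3, and the means differed by a ratio of 1.25. edgeR tested 5 members, called 0, where 0.166% of 603 genes were called, and had 1 member under an unadjusted p of 0.05 (5.8% of all genes). DESeq2 called 0 and had 0 members under that p. No tested member's groups were without overlap, where 2.82% of genes were higher and 4.31% lower in every PPTx sample. *Psma1* had a log2 fold change of 1.12 (SE 0.49, edgeR adjusted p = 0.805), *Psmb1* 0.64 (SE 0.35, adjusted p = 0.805) and *Psmb4* 0.57 (SE 0.33, adjusted p = 0.805). The constitutive catalytic subunits of PP-cells had 258.4, 287.1 and 171.8 in control and 309.0, 387.0, 476.7 and 501.9 in PPTx samples, and the 19S particle 2024, 2010 and 1889 in control and 2240, 2204, 2835 and 2259 in PPTx samples. Neither overlapped, on 94 and 608 UMIs over all PP-cells, and neither did the lid (ratio 1.48). The 20S core overlapped, at 1938 to 3517 in control and 3263 to 3967 in PPTx samples, as did the α ring, the non-catalytic β subunits, the inducible subunits, the ATPases (0.96), the rest of the base and the assembly factors (0.65). The ratio was 1.296 for the core and 1.21 for the particle. In the left-out control sample 1 the particle was at 3645, from 8 UMIs, above all PPTx samples. In α-cells the level was 4681, 3630, 4921 and 4501 in control and 4957 and 6079 in PPTx samples 2 and 3, from 5 cells in each of the latter. PPTx sample 1, with 4 α-cells, was at 4354 and within the control range, and PPTx sample 4, with 1 α-cell, was at 4984.

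Whether the PPTx difference itself differed between PP- and β-cells was tested with an interaction term. edgeR tested 32 members and called 0, where 0.0937% of 4271 genes were called. At an unadjusted p under 0.05 there was 1 member, *Psmd6* (5.31% of all genes), and DESeq2 called 0 members (0.0234% of all genes) and had 1 under that p. *Psmd6* had levels of 0, 71.8 and 34.4 in PP-cells of control samples 2 to 4 and of 96.6, 204.2, 276.0 and 376.5 in those of PPTx samples, with no overlap. The control levels rest on 0, 1 and 1 UMI and the PPTx levels on 5, 19, 11 and 6. In β-cells it had 162.6 to 210.3 in control and 165.0 to 255.7 in PPTx samples. The interaction was 2.64 on the log2 scale (SE 0.87, edgeR adjusted p = 0.622). The next lowest p-values were those of *Psma1* (0.96, SE 0.50) and *Psmd4* (1.64, SE 0.90), at adjusted p-values of 0.931 and 0.936.

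The highest members in β-cells were *Psmb4* (494.2), *Psmb1* (379.8) and *Psma7* (316.4), means over the 8 samples, and these 3 held 23.0% of the UMIs of the 39 genes. Their ranges over samples overlapped (349.7 to 608.4, 181.8 to 484.5 and 250.2 to 426.1). Without them the PPTx ratio of the sum was 1.19. Across the 38 members with a UMI, which include *Psmc3ip*, the median level was 118.9 and 8 members lay at 200 or more. Under 50 lay 9, among them *Psmb5* (47.6), *Psmb10* (40.5), *Psmb8* (24.1), *Psmb9* (16.9) and *Psmc3ip*. With the mean of the groups compared, 32 of the 38 were higher, *Psmc3ip* among them, and 6 lower after PPTx.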

How the data were processed

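Single-cell RNA-seq was made from islets of 4 control and 4 PPTx samples. The authors deposited tables of UMI counts per cell and gene, made with Cell Ranger on mm10 per the methods. bcl2fastq and mm10 are also in the submitters' processing notes. The methods name a SureCell kit and the labels a Chromium kit. The deposited cells had been selected, since the lowest kept cell held 2005 UMIs, and no mitochondrial genes were listed. Tables held 236645 to 1580152 UMIs in control and 613202 to 1560114 in PPTx samples.

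The kept cells had between 100 and 3000 detected genes and between 100 and 20000 UMIs. No doublet caller was run, and mixed cells were left out. A cell class needed 5 cells in a sample, and a replicating cell 2 marker UMIs. Counts were summed per sample and class and tested across all genes with edgeR 4.0.16 (quasi-likelihood, TMM, Benjamini-Hochberg adjustment, threshold 0.05) in R 4.3.3. DESeq2 1.42.0 was the alternative tool. Comparisons within samples had the sample as a block. The fits were tested on simulated data, and no outcome of that test is reported here. Exact tests used scipy 1.17.1, and counts were read with pandas 2.3.3.

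The members and lists were chosen with earlier results of these data known, and the promoter motifs after the values were seen. Named were all called members, or the 3 with the lowest p-values where none was called, with the catalytic and inducible subunits, *Psmd4*, *Psmd14* and the 3 highest members. Other members named with a value (among them *Psma4*, *Psma5*, *Psmc2*, and *Psmd6* in α-cells) were chosen after their values were seen. Alternatives changed the tool, filter, library size, hormone lead, depth, cells, denominator, pairing and samples. RefSeq promoters were matched by symbol, and *Psma8*, *Psmb1*, *Psmb2*, *Psmb7*, *Psmc3*, *Psmd3* and *Psmd7* had no entry used here. Some genes of the lists are counted and not named, and their values are not reported here.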

Additional observations from a re-analysis of the deposited data

Results flagged for a closer look

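The inducible subunit *Psmb9* in β-cells stood apart in 1 control sample. Control sample 2 had a level of 37.5 UMIs per 1000000 non-hormone UMIs, while the other 3 control samples lay between 14.0 and 16.8, so that its gap to the nearest was 0.880 of the whole range. Of 44 sets of 4 samples that were checked it was the 1 that passed the limit for an outlying sample, and chance passes about 1 in 20. *Psmb9* had 39 UMIs in all β-cells.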

How the results depend on the processing

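In β-cells after PPTx, 0 members were called under every alternative that was run, while the number of all genes called moved from 16 to 24 with DESeq2, 98 without the filter, 35 with the replicate block, 32 with all kept cells summed, 5 with cells thinned to 2000 UMIs and 1 to 20 when samples were left out 1 at a time. The summed level was recomputed with other denominators, averaging, hormone leads, depths, members, cells and samples, but not with all kept cells, all cells of the tables or the replicate block. It was higher after PPTx without overlap in each of these, at 0.40 on the log2 scale over all UMIs, where hormone RNA enters the total, and at 0.21 to 0.33 without 1 sample.

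The calls between cell types and cell states were less stable. Between α- and β-cells the number of members called was 0 with DESeq2, 0 with a hormone lead of 10, 0 with thinned cells, 2 without the filter, *Psmd6* and *Psmb5*, both lower in α-cells with the call of *Psma2* lost, and 0 to 2 without 1 sample. Of all genes, in that order, 583 of 1376, 736 of 2572, 242 of 416 and 1295 of 14447 were called. Without 1 sample 465 to 725 genes were called. Between PP- and β-cells the number of members called was 1 with DESeq2, a lower one, 2 without the filter, *Psmc3* and *Psmc4*, both lower, and 0 with thinned cells. It was 4 of 25 tested with a hormone lead of 10, of which 3 were higher, and 0 to 4 without 1 sample. Of all genes, in that order, 582 of 1376, 1393 of 14447, 179 of 416 and, with a lead of 10, 857 of 2572 were called. Without 1 sample 503 to 738 genes were called. With a hormone lead of 10 *Psma3* (1.17, SE 0.35, edgeR adjusted p = 0.0044) and *Psmd11* (1.14, SE 0.38, edgeR adjusted p = 0.011) were called higher. Neither was tested in the main fit, and *Psma3* was also called higher without control sample 2 or 4. *Psma2* and *Psma1* lost their calls in PP-cells with DESeq2 and without the filter, and *Psma1* with a hormone lead of 10. *Psma2* also lost its call there without control sample 4 or PPTx sample 2, *Psma1* without control sample 3 or PPTx sample 1, 2 or 3, and *Psmc4* without control sample 3. *Psmc4* was also not among the calls with library sizes without hormone genes, a hormone lead of 1.5, thinned cells or without PPTx sample 1 or 2, where it had too few counts for the test. Between replicating and other β-cells the number of members called was 1 without the filter, *Psmc3ip*, which is no subunit, where 547 of 14032 genes were called. Between chaperone-high and chaperone-low cells the number of members called was 0 with DESeq2, 4 of 38 tested without the filter and 0 with thinned cells. Without the filter *Psma5* was called higher and *Psmb8* lower besides both genes called with it. Of all genes, in that order, 108 of 1125, 294 of 13749 and 41 of 435 were called. When each sample was split at its median share, 1 member and 177 of 3318 genes were called. Without 1 sample 0 to 3 members and 153 to 256 genes were called. DESeq2 gave an adjusted p to 11 of the 33 members in β-cells after PPTx and to 9 of the 22 between chaperone-high and chaperone-low cells. Thinned cells left 1 to 21 members to test, and other causes were not tested.

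For single genes, 228 of 265 settings kept the direction and the side of the threshold, 33 ended a call and 4 turned the sign of *Psmb7* in β-cells after PPTx, which was not called (-0.49 to -0.06). Most of the 265 were of genes with no call to lose. By chaperone share, the call was kept and lost in 3 and 9 settings for *Psma7* and in 6 and 6 for *Psmd6*. In PP-cells these were 6 and 7 for *Psma1*, 9 and 4 for *Psma2* and 8 and 1 for *Psmc4*, and in α-cells 7 and 6 for *Psma2*. In 5 further settings DESeq2 gave no adjusted p. The median over the members kept its sign in 80 of 94 settings. It turned in 5 between α- and β-cells (0.01 to 0.05), in 6 between PP- and β-cells (-0.40 to -0.0046), in 2 between replicating and other β-cells and in 1, with thinned cells, between chaperone-high and chaperone-low cells, and in no setting of the PPTx comparisons in β- and PP-cells or of their difference. Samples with 1 replicate number in both groups correlated at 0.03 to 0.15 in their deviations, and 3 of the 4 control samples correlated best with their own number while control sample 2 did so with PPTx sample 3. Since not every pair was over 0.1, the numbers were not taken as pairs. With the replicate block 0 members were called in β-cells and 0 in PP-cells.

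The alternatives without replicating cells and without cells that hold other types' markers were chosen after seeing the data. Depth limits single genes, with 12 UMIs of all subunits in a median β-cell.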

Other observations

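The 9 δ-cells held 65 UMIs of the proteasome genes. Their summed level was 4187, 3336, 4892 and 3869 UMIs per 1000000 non-hormone UMIs in the control samples, from 2 cells each, and 6227 in the 1 δ-cell of PPTx sample 1.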
